A study of Homo sapiens with 27 samples.

Results

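The 6 libraries described here are the 3 LN523 and the 3 LN323 libraries collected at day 32, out of 27 bulk RNA-seq libraries in the series, and were chosen by matrix and day. Each library of the LN523 group was set against the LN323 library from the same sequencing lane, which gave 3 lane pairs. All of the libraries came from H1, a human embryonic stem cell line, used at passages 10 to 25 and differentiated toward photoreceptor progenitors on plates coated with recombinant laminin. Neural induction medium with the kinase inhibitors CKI-7 and SB431542 was followed, in both groups, by photoreceptor differentiation medium with BDNF, CNTF, retinoic acid and DAPT, an inhibitor of Notch cleavage. The sources differ on the composition of the coatings. The coating label of the LN523 libraries names laminins 523 and 323 and that of the LN323 libraries names laminin 323 alone, whereas the study's methods describe each of these isoforms as mixed with LN521. The growth label of the LN523 libraries also names LN521. The matrices are therefore called by their leading isoform. The titles of the libraries number day 32 as day 30. The recombinant laminins came from clonal lines of HEK293, a human embryonic kidney cell line, and the study used a single cell line for these 6 libraries, so that nothing here shows how other lines respond.

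Laminins are trimers of an alpha, a beta and a gamma chain that form the scaffold of basement membranes and of the matrix around photoreceptors. LN523 and LN323 share the beta and gamma chains and differ in the alpha chain, and it is through the alpha chain that cells mostly bind laminin, by integrins and dystroglycan. In the developing retina, progenitors that express RAX, SIX6 and PAX6 leave the cell cycle in waves under the control of proneural factors and Notch signalling. They give rise to ganglion, horizontal and amacrine cells, to cones and rods through the homeobox factors OTX2 and CRX, and later to bipolar cells and Muller glia. The comparison asks which genes differed at day 32 between cultures that had grown on the LN523 and on the LN323 matrix. By the study's methods the LN323 coating also held LN521, which carries the α5 chain. By the coating label the LN523 coating also held LN323. By either source the contrast is thus not of α5 alone against α3 alone.

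Total counts were 36556131 to 47340990 on LN523 and 35588342 to 40813402 on LN323. Of the counts above 0, 68.2% were even, as when both mates of a read pair are counted. The highest 100 genes held 14.6% to 16.2% of the counts of a library. Lanes differed far more than the matrices did. Among the 16391 genes with a mean of at least 1 CPM (counts scaled by library size, with TMM normalization) in a group, the median share of variation on the log2 scale was 70.9% between lanes, 8.39% between matrices and 13.7% residual. An F test of the lane terms called 6419 of 36703 genes (17.5%). Nothing in the labels says that the replicates were separate cultures, so that p-values speak for these libraries only. In the main fit they rest on a spread shared among genes, as described below.

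edgeR's quasi-likelihood test with lane as a block called 1035 of 36703 genes at an adjusted p-value under 0.05, of which 500 were higher on LN523 (1.36% of the genes tested) and 535 were lower (1.46%). "Called" refers to this test below. The number of calls depended on the fit. In this one the prior degrees of freedom were estimated as infinite, so that genes of the same abundance shared a single spread, while the lane differences of the called genes varied with a median SD of 0.55 on the log2 scale against a median fold change of 0.79. With the filterByExpr filter the prior degrees of freedom were 5.04, and 0 of 20427 genes were called (1892 at an unadjusted p under 0.05), with the lowest adjusted p at 0.0721. Fits without the replicate block (664 at an unadjusted p under 0.05) or with the LN521 libraries (747) also called 0 genes. DESeq2, fitted here with terms for lane and matrix and a Wald test, called 437 genes, all among the 1035. These were 242 higher (1.44%) and 195 lower (1.16%) on LN523. The study used an earlier version of DESeq2 and reported fewer genes for this comparison. Of the 1035 genes called by edgeR, 828 had the same sign in 3 of 3 lanes, and of the 437 called by both tools, 433 did. The values in each library are therefore given for most genes described, and a difference written with ± is its mean and SD over the 3 lanes. Adjusted p-values of the filterByExpr fit are printed for some of the calls. The calls without one did not pass in that fit either.

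Among genes with at least 1 CPM, 3.02% were called higher and 3.25% lower on LN523, 17% were higher in 3 of 3 lanes and 16.8% were lower in 3 of 3 lanes. The median log2 fold change of these genes was -0.0047. The count of each gene list below covers its members at 1 CPM or more and is to be read against these shares. In bulk RNA, fewer cells of a type and less RNA per cell cannot be told apart.

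Photoreceptor genes were higher on LN523. Of 10 transcription factors of the photoreceptor lineage, 6 were called higher (60%) and 0 lower, namely CRX, OTX2, NRL, NEUROD1, PRDM1 and RORB. DESeq2 called 4 higher, and 7 were higher in 3 of 3 lanes. OTX2 (ENSG00000165588; chromosome 14 of GRCh38, 56799905 to 56816693), which commits progenitors to the photoreceptor fate, was at 101, 51.1 and 25.6 CPM in lanes 1 to 3 on LN523 and at 27.6, 24.9 and 10.3 CPM on LN323. It was at least 2-fold higher on LN523 in every lane, by 1.4 ± 0.43 on the log2 scale (SD, n = 3 lanes; adjusted p = 2.83e-22 in edgeR, 0.129 with filterByExpr and 1.54e-11 in DESeq2). The groups overlapped only through lane 3, which was low on both matrices. CRX, the factor that activates most photoreceptor genes, was at 27.4, 36.1 and 5.66 CPM on LN523 and 7.85, 9.54 and 3.07 CPM on LN323, a difference of 1.53 ± 0.57. NEUROD1 (chromosome 2, 181668295 to 181680827), a proneural factor of photoreceptor precursors, was at 42.7, 38.1 and 22.5 CPM on LN523 and 6.39, 14.7 and 7.04 CPM on LN323, and here the groups did not overlap. PRDM1, which holds precursors away from the bipolar fate, was at 35.5, 25.5 and 5.24 CPM on LN523 against 4.15, 9.34 and 2.78 CPM on LN323. It was called in edgeR (adjusted p = 2.77e-17) but not in DESeq2 (0.084). NRL, the determinant of rods, was low on both matrices, at 3.05, 2.69 and 2.78 CPM against 1.09, 1.42 and 1.07 CPM, and it was called in edgeR (adjusted p = 0.02) but not in DESeq2 (0.132).

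Of 21 genes of phototransduction, the outer segment and its matrix, 6 were called higher (28.6%; 4 without replicate 1) and 0 lower, and 3 of these, CDHR1, IMPG2 and RBP3, were higher in 3 of 3 lanes. RBP3 (chromosome 10, 47348363 to 47357881) encodes the retinoid-binding protein of the matrix between photoreceptors. It stood at 43.5, 49.9 and 4.75 CPM on LN523 and at 5.72, 10.9 and 2.70 CPM on LN323, so that lanes 1 and 2 differed by far more than lane 3. Its difference was 1.97 ± 1.07 (adjusted p = 1.30e-26 in edgeR, 0.163 with filterByExpr and 0.0237 in DESeq2). CDHR1, a cadherin at the base of the outer segment, was at 19.5, 10.9 and 2.34 CPM against 3.42, 3.32 and 0.78 CPM, a difference of 1.91 ± 0.52. The calcium sensor RCVRN was at 4.45, 2.56 and 0.187 CPM on LN523 and at 0.224, 0.0963 and 0.208 CPM on LN323, and in lane 3 it was not higher. PDC and GUCY2D had the same form, with lane 3 at 0 and 0.187 CPM on LN523. PCARE, a photoreceptor gene outside the lists and the largest rise among the genes that were called, had the same sign in all lanes and a mean of at least 1 CPM, was at 3.31, 1.69 and 0.0936 CPM against 0.477, 0.241 and 0 CPM. RDH8 had too few counts to be tested, and OPN1LW, GNAT2 and GUCA1C were not analysed here. Summed over the transcription factors, the level per length was 342, 258 and 169 TPM on LN523 and 198, 132 and 151 TPM on LN323. In the plot of levels by lane, OTX2, CRX, NEUROD1 and RBP3 run upward from LN323 to LN523 in all lanes.

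**Figure D1:**
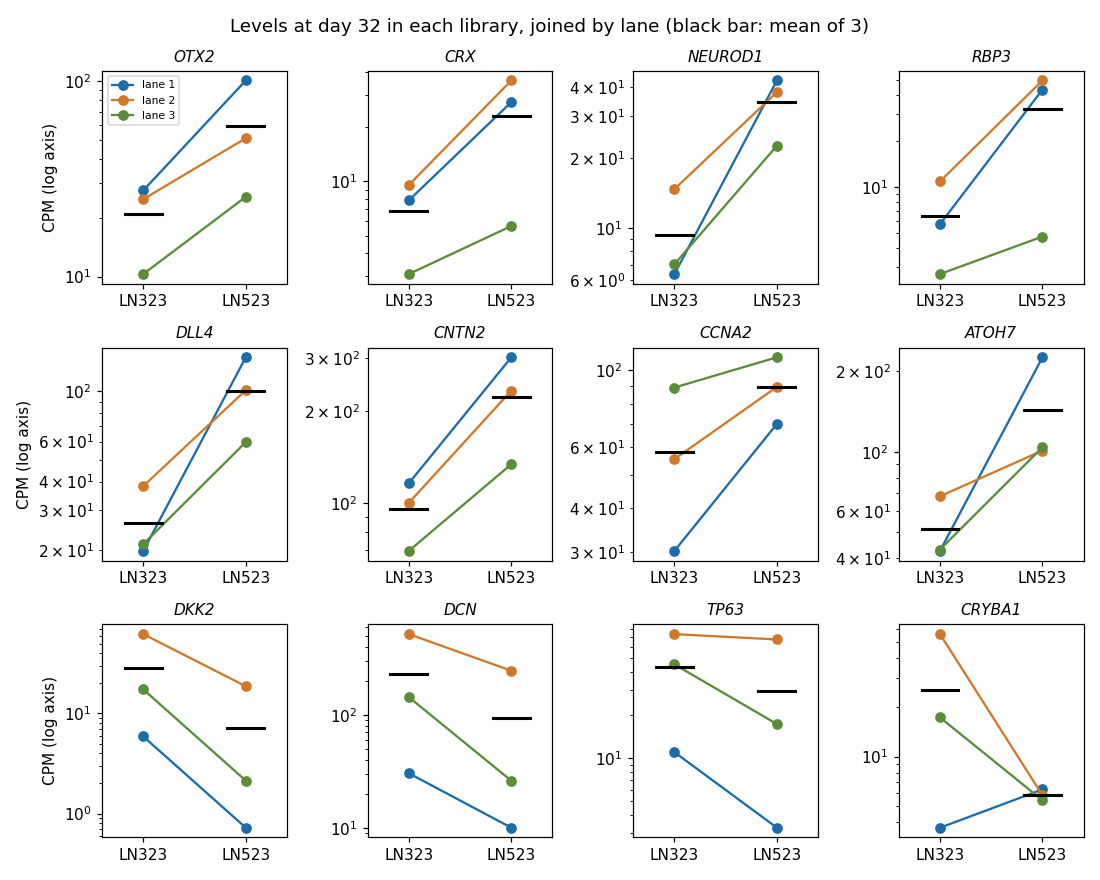
Levels at day 32 in CPM on a log axis for 12 genes, with each point a library, lines joining the LN323 and LN523 libraries of a lane and black bars marking the mean of 3. OTX2, CRX, NEUROD1, RBP3, DLL4, CNTN2, CCNA2 and ATOH7 are higher on LN523 in all 3 lanes, DKK2, DCN and TP63 are lower in all 3, and CRYBA1 is lower in lanes 2 and 3 only.

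CRX and OTX2 bind a short homeodomain core, TAATCC. Searched on both strands in the 250 bases before the RefSeq start (build GRCh38.p14), the core was present in 1 of the 10 called photoreceptor genes with a promoter entry, and in 5.67% of all 27305 promoters. The promoter that held it was that of CRX itself, with 2 copies, both on the reverse strand (GGATTA), at 164 and 85 bases before the start. It is shown as the only one of these promoters with a match, with the copies in capitals (chr19:47821687-47821936, forward strand).
CRX promoter: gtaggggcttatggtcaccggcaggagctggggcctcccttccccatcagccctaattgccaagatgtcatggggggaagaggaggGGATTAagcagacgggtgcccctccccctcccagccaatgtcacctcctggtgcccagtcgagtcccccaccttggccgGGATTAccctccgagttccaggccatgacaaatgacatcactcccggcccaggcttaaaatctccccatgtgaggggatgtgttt

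Genes of neurogenesis were also higher on LN523. Of 20 proneural and Notch genes, 9 were called higher (45%), 8 of them in DESeq2 as well, and 1 was called lower. HES6 (chromosome 2, 238238267 to 238240662), which promotes neuronal differentiation by blocking HES1, was at 393, 189 and 121 CPM on LN523 and 36.0, 87.1 and 43.8 CPM on LN323. Every LN523 library was above every LN323 library, and the difference was 2.01 ± 1.26 on the log2 scale (adjusted p = 8.24e-62 in edgeR, 0.227 with filterByExpr and 0.0827 in DESeq2). DLL4 (chromosome 15, 40929340 to 40939073), a Notch ligand of newly born neurons, was at 141, 101 and 59.7 CPM against 19.8, 38.2 and 21.2 CPM, a difference of 1.91 ± 0.80, and again the groups did not overlap. NEUROG2, a proneural factor, was at 18.9, 10.6 and 5.48 CPM against 1.35, 4.00 and 1.82 CPM. The other genes called higher were the ligand DLL3, the target HES5, the transcription factors INSM1 and OLIG2, and MFNG, a glycosyltransferase that modifies Notch receptors. The receptor NOTCH1 (log2 fold change 0.12, adjusted p = 0.989) and the effector HES1 (0.14, adjusted p = 0.989) were not called. HEY2, a Notch target, was called lower, at 0.17, 5.93 and 0.608 CPM on LN523 and 0.336, 6.45 and 4.11 CPM on LN323.

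Some markers of the early-born retinal neurons were also higher on LN523. Of 12 ganglion cell genes, 3 were called higher (1 without replicate 1, and 1 in DESeq2) and 1 lower (0 without replicate 3). In 3 of 3 lanes, 3 were higher (25%) and 1 was lower. The list median was 0.76, 0.29 and -0.31 in lanes 1 to 3, so that the list as a whole did not differ in the same direction. ATOH7 (chromosome 10, 68230595 to 68232113), the factor that makes progenitors competent to form ganglion cells, was at 226, 101 and 104 CPM on LN523 and 42.5, 68.1 and 43.0 CPM on LN323, without overlap, and POU4F2, a ganglion cell factor, was at 23.9, 17.6 and 13.2 CPM against 6.98, 11.2 and 8.47 CPM. ATOH7 was called in edgeR (adjusted p = 7.79e-31) and not in DESeq2 (0.135). THY1, a surface protein that fibroblasts express too, was lower, at 5.34, 14.1 and 6.55 CPM against 7.01, 26.0 and 15.0 CPM. Of 14 horizontal and amacrine cell genes, 5 were called higher, among them ONECUT1, ONECUT2 and FOXN4 (3 without replicate 1, and 3 in DESeq2), and 1 lower (0 in DESeq2). In 3 of 3 lanes, 7 of them were higher (50%) and 4 were lower (28.6%). ONECUT2, needed for horizontal cells, was at 48.2, 43.2 and 32.6 CPM on LN523 and 10.3, 20.4 and 14.1 CPM on LN323, at least 2-fold higher in each lane. FOXN4, a progenitor factor upstream of horizontal and amacrine cells, was at 27.7, 15.0 and 39.0 CPM against 8.52, 7.61 and 19.7 CPM. PTF1A, which specifies these cells, had at most 0.168 CPM in any library. The gene called lower was TFAP2B, which the epidermis and neural crest also express, at 0, 50.8 and 6.22 CPM against 2.36, 74.9 and 21.6 CPM.

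Of 17 genes of the neuronal cytoskeleton and axon, 13 were called higher (76.5%) and 1 lower, and 15 were higher in 3 of 3 lanes (88.2%). The list median was 0.77 on the log2 scale, with 1.17, 0.84 and 0.53 in lanes 1 to 3. Without replicate 1, the lane with the largest median, 7 were called higher. CNTN2 (ENSG00000184144; chromosome 1, 205042937 to 205078289), an adhesion protein of growing axons, was at 301, 234 and 134 CPM on LN523 and 116, 100 and 69.5 CPM on LN323, without overlap. Its difference was 1.18 ± 0.22, with an adjusted p of 4.81e-25 in edgeR, 0.0721 with filterByExpr and 6.38e-16 in DESeq2. STMN2, a regulator of microtubules in growing neurites, was at 182, 186 and 76.5 CPM against 50.7, 97.6 and 51.4 CPM, and the light neurofilament NEFL at 43.7, 76.7 and 30.1 CPM against 18.8, 27.6 and 23.2 CPM. TUBB3, the neuronal tubulin, was at 4.88, 4.95 and 6.20 CPM against 4.26, 4.00 and 4.55 CPM and was not called (adjusted p = 0.989). NEFH, the heavy neurofilament, was the gene called lower. Of 16 presynaptic and ribbon synapse genes, 3 were called higher, BSN, RIMS1 and SYP, and 0 lower. SYP, a vesicle protein, was at 23.8, 28.5 and 10.6 CPM on LN523 and 5.94, 9.46 and 7.20 CPM on LN323. The active zone proteins differed less, BSN by 0.57 ± 0.27 and RIMS1 by 0.98 ± 0.52.

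Of 32 genes of axon guidance, 2 were called higher and 9 lower. The counts were 0 and 5 without replicate 1, 6 and 7 without replicate 2, 1 and 3 without replicate 3, and 1 and 2 in DESeq2. SLIT1, a repellent ligand that neurons secrete, was higher, at 36.0, 28.5 and 14.1 CPM against 11.6, 13.9 and 9.88 CPM. SLIT3, its relative, was lower, at 42.0, 48.8 and 26.1 CPM against 60.3, 108 and 41.1 CPM, and so was the semaphorin SEMA3D, at 51.1, 207 and 69.6 CPM against 102, 252 and 129 CPM. SEMA3A was at 159 to 194 CPM on LN523 and 196 to 219 CPM on LN323 and was not called (adjusted p = 0.169).

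Of 31 cell cycle genes, 15 were called higher (48.4%) and 0 lower, and 12 of them were called in DESeq2. CCNA2 (chromosome 4, 121816444 to 121823883), the cyclin of S phase and mitotic entry, was at 70.1, 89.6 and 109 CPM on LN523 and 30.2, 55.5 and 89.2 CPM on LN323, a difference of 0.73 ± 0.47. AURKB, a kinase of chromosome segregation, was at 46.3, 56.7 and 60.9 CPM against 17.9, 30.8 and 52.6 CPM, and the spindle factor TPX2 was at 147, 141 and 162 CPM against 58.3, 91.6 and 156 CPM. The difference was largest in lane 1, and the list median was 0.87, 0.19 and 0.21 in lanes 1 to 3. Without replicate 1, 0 members were called, so that these calls rested on lane 1. MKI67, a marker of dividing cells, was at 99.8, 115 and 153 CPM against 48.1, 93.7 and 143 CPM. The replication gene MCM2 (log2 fold change 0.02) and the clamp PCNA (-0.10) were not called.

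The eye field was present on both matrices. RAX, which defines the eye field, was at 211, 87.0 and 310 CPM on LN523 and 160, 77.4 and 283 CPM on LN323 (adjusted p = 0.443). Of 14 eye field and progenitor factors, 5 were called higher (3 without replicate 3, and 3 in DESeq2) and 3 lower (1 without replicate 3). FZD5, a Wnt receptor of the eye field, was at 304, 157 and 338 CPM against 202, 89.4 and 232 CPM, and LHX2, SIX6 and SOX2 were among the others called higher, LHX2 without the same sign in all lanes. The factors called lower, TBX5, TBX3 and MEIS2, are expressed in the dorsal retina or in mesenchyme, and TBX5 was at 31.8, 55.1 and 40.6 CPM on LN523 against 68.5, 66.2 and 95.6 CPM on LN323, with no overlap of the groups. Of 10 optic stalk and forebrain factors, 3 were called higher, among them VAX2, of the ventral retina, and FEZF1 (1 without replicate 1, 1 without replicate 3, and 1 in DESeq2), and 2 were called lower (3 without replicate 1, and 1 in DESeq2 and without either other lane). EN1 and LMX1B, of the midbrain and of periocular mesenchyme among other tissues, were the ones called lower. VAX1 had at most 0.104 CPM in any library.

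Lists of mesenchyme and of other tissues outside the retina held mostly genes that were lower on LN523. Of 24 genes of mesenchyme and fibrillar matrix, 16 were called lower (66.7%), 9 of them in DESeq2, and 0 higher. DCN (chromosome 12, 91140484 to 91183217), a collagen-binding proteoglycan, was at 10.0, 247 and 26.1 CPM on LN523 and 30.4, 522 and 144 CPM on LN323, a difference of -1.71 ± 0.70 (adjusted p = 7.05e-49 in edgeR, 0.129 with filterByExpr and 0.00105 in DESeq2). PRRX1, a factor of connective tissue progenitors, was at 1.74, 43.6 and 5.52 CPM against 4.09, 133 and 38.4 CPM, and the collagen COL6A3 at 4.37, 182 and 17.0 CPM against 13.4, 339 and 120 CPM. COL1A1, the main fibrillar collagen, was at 260, 771 and 215 CPM against 356, 1420 and 387 CPM. Each of these was lower in 3 of 3 lanes, and lane 2 was the highest on both matrices. PDGFRB, a receptor of pericytes and mesenchyme, was at 511, 263 and 294 CPM against 499, 260 and 258 CPM and was not called. The summed level of the list was 4640, 9460 and 3880 TPM on LN523 and 5990, 14500 and 6140 TPM on LN323, with the ranges overlapping. The list went the opposite way to the photoreceptor and neuronal lists. Its medians were -0.43, -0.7 and -0.91 in lanes 1 to 3, against 1.17, 0.84 and 0.53 for the neuronal cytoskeleton. The part of these genes in the higher lists was not tested.

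Of 33 epidermal and surface ectoderm genes, 17 were called lower (51.5%) and 0 higher, and 12 were lower in 3 of 3 lanes. TP63 (chromosome 3, 189631389 to 189897276), the master factor of stratified epithelium, was at 3.26, 67.5 and 17.3 CPM on LN523 and 11.0, 73.6 and 45.2 CPM on LN323. CDH1, the epithelial cadherin, was at 12.0, 304 and 95.1 CPM against 63.8, 285 and 196 CPM, and the keratin KRT15 at 0.424, 73.9 and 9.06 CPM against 2.89, 145 and 14.4 CPM. The list median was -1, 0.09 and -0.64 in lanes 1 to 3. The lower levels were thus those of lanes 1 and 3, and without replicate 2 the count called lower was 26, against 6 without replicate 1. DESeq2 called 3 members.

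Of 17 lens genes, 9 were called lower (52.9%) and 0 higher, but these calls rested on lane 2, and DESeq2 called 1. The crystallin CRYBA1 was at 6.32, 5.82 and 5.43 CPM on LN523 and 3.70, 55.5 and 17.3 CPM on LN323, and CRYGS at 1.99, 1.58 and 2.11 CPM against 1.51, 18.9 and 6.42 CPM. The list summed to 1540 TPM in the lane 2 library on LN323 and to 244 to 748 TPM in the other 5. Without replicate 2, 0 lens genes were called lower and 3 were called higher, and the list median was 0.04. CRYAA (log2 fold change -0.86) had a value of 0.05 without that lane.

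Of 17 HOX genes, which mark hindbrain and trunk positions, 11 were called lower (64.7%) and 0 higher, and 5 were lower in 3 of 3 lanes. HOXA5 was at 0.636, 46.6 and 11.6 CPM on LN523 and 4.65, 42.1 and 35.7 CPM on LN323, and HOXB4 at 0.615, 34.4 and 4.84 CPM against 1.74, 33.2 and 21.1 CPM, so that lane 2 did not share the difference. Without replicate 3, 3 members were called lower, without replicate 1, 7, and DESeq2 called 2. The list summed to 10.3, 369 and 76.1 TPM on LN523 and 41.4, 352 and 269 TPM on LN323. Of 9 neural crest and Schwann cell genes, 2 were called higher and 3 lower. SNAI2, of migrating crest and mesenchyme, was at 9.79, 34.1 and 11.2 CPM against 16.2, 59.9 and 28.4 CPM, and ERBB3 and TFAP2B were also called lower, whereas CDH6 was among those called higher. The median of the list was -0.72 in edgeR and 0.34 in DESeq2. SOX10 was not analysed here and CDH19 was not tested. Of 7 muscle genes, 2 were called lower (0 or 1 with a lane left out, and 0 in DESeq2), the actin ACTC1 and the troponin TNNT2, with lane medians of -0.08, -0.42 and 0.08. Endothelial and blood genes gave 0 calls among 7 members in edgeR (0 at an unadjusted p under 0.05) and 0 in DESeq2, with CLDN5 at 4.07, 1.63 and 2.11 CPM against 0.897, 2.22 and 1.98 CPM (adjusted p = 0.952), and the list summed to between 13.7 and 26.7 TPM.

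**Figure D2:**
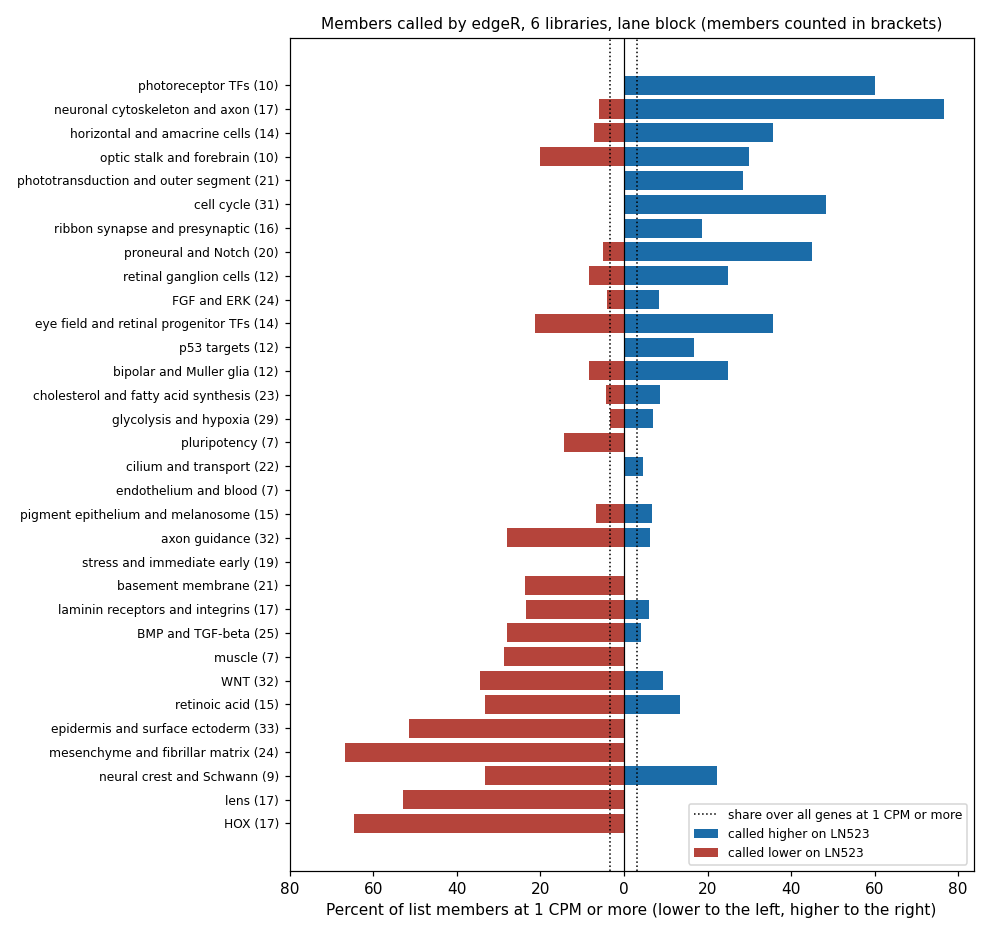
Percent of the members of each of 32 gene lists that were called higher (to the right) or lower (to the left) on LN523 by edgeR with the lane block, with the number of members at 1 CPM or more in brackets and dotted lines at the shares over all such genes (3.02% and 3.25%). Photoreceptor, neuronal, neurogenic and cell cycle lists lie to the right, mesenchymal, epidermal, lens and HOX lists to the left, and the lists of stress genes and of endothelium and blood have no member called.

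In the Wnt list and in the BMP and TGF-beta list, more genes were called lower than higher on LN523. Of 32 genes of the Wnt pathway, 11 were called lower (34.4%), 8 of them in DESeq2 and 7 without replicate 3, and 3 were called higher (1 without replicate 1, and 1 in DESeq2). DKK2 (chromosome 4, 106921802 to 107283806), a secreted modulator of Wnt coreceptors that periocular mesenchyme makes, was at 0.721, 18.7 and 2.13 CPM on LN523 and 5.89, 62.1 and 17.4 CPM on LN323. It was at least 2-fold lower in each lane, by -2.56 ± 0.72 (adjusted p = 1.74e-37 in edgeR, 0.118 with filterByExpr and 3.52e-18 in DESeq2). WIF1, a secreted Wnt inhibitor, was at 0.594, 33.8 and 2.53 CPM against 2.24, 65.3 and 20.6 CPM. The feedback targets were also lower, NKD1 at 13.8, 74.8 and 20.3 CPM against 18.8, 107 and 66.3 CPM and AXIN2, of which a gene on the same strand covers 25.3%, at 16.9, 37.9 and 20.6 CPM against 17.9, 60.1 and 32.9 CPM (adjusted p = 0.0265 in edgeR and 0.148 in DESeq2). LEF1, a transcription factor and target of the pathway, was lower by -0.71 ± 0.13, and the ligand WNT2B by -0.94 ± 0.14. The genes called higher were the receptor FZD5 and the secreted factors DKK1 and DKK3.

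Of 25 genes of BMP and TGF-beta signalling, 7 were called lower and 1 higher. Without replicate 3, and in DESeq2, 4 were called lower and 0 higher, and without replicate 1 the gene called higher was lost as well. INHBA, the activin subunit, was at 7.93, 54.8 and 15.3 CPM on LN523 and 24.1, 86.7 and 26.4 CPM on LN323. The target MSX2 was lower by -0.59 ± 0.04, nearly the same in each lane, whereas MSX1 was at 1.82, 22.6 and 2.95 CPM against 2.52, 23.9 and 28.0 CPM and differed mainly in lane 3. TGFBI, a matrix protein induced by TGF-beta, was at 68.5, 250 and 77.4 CPM against 72.2, 403 and 224 CPM. BMP2 was at 11.4, 17.2 and 11.8 CPM against 8.97, 8.67 and 8.84 CPM and was not called (adjusted p = 0.0951). Of 24 genes of FGF signalling, FGF8 and FGF19, ligands made in the early neural retina, were called higher and the receptor FGFR2 was called lower. The count called higher was 5 without replicate 2, 0 without replicate 3 and 1 in DESeq2. In 3 of 3 lanes, 8 members of this list were higher (33.3%) and 1 was lower (4.17%). FGF19 was at 99.3, 37.3 and 131 CPM against 73.1, 31.8 and 67.8 CPM, and FGFR2 was lower by -0.60 ± 0.19, while FGF2 had a log2 fold change of 0.04 and was not called.

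Of 15 genes of retinoic acid metabolism and response, 2 were called higher and 5 lower. The counts were 0 and 3 without replicate 1, 3 and 6 without replicate 2, 1 and 1 without replicate 3, and 2 and 2 in DESeq2, and the list median of -0.29 was -0.04 without replicate 2 or replicate 3. ALDH1A1 (chromosome 9, 72900671 to 73080442), the dehydrogenase that makes retinoic acid in the dorsal retina, was at 2760, 1760 and 4520 CPM on LN523 and 4430, 2080 and 6600 CPM on LN323, lower by -0.49 ± 0.23 (adjusted p = 2.51e-05 in edgeR, 0.295 with filterByExpr and 0.00544 in DESeq2). CRABP1, a cellular retinoic acid binding protein, was at 1040, 487 and 1450 CPM against 632, 349 and 1070 CPM, and a gene on the other strand covers 45.9% of its exons. CYP26A1, which degrades retinoic acid, was at 19.8, 17.9 and 29.8 CPM against 12.6, 12.5 and 17.7 CPM, with no overlap. RARB, a receptor and target of retinoic acid, was at 38.1, 91.6 and 33.5 CPM against 45.1, 112 and 79.8 CPM. Retinoic acid was added to the medium of both groups.

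The cells express laminins and laminin receptors of their own. Of 21 basement membrane genes, 5 were called lower (23.8%) and 0 higher, namely LAMA2, LAMA4, LAMB1, LAMB3 and NID2 (3 without replicate 3). LAMA4 (chromosome 6, 112107931 to 112254939), the alpha chain of vessels and mesenchyme, was at 6.97, 27.3 and 12.4 CPM on LN523 and 9.03, 71.5 and 23.4 CPM on LN323. LAMB1, a widespread beta chain, was at 151, 516 and 173 CPM against 224, 569 and 330 CPM. The alpha chains in which LN523 and LN323 differ were not called at the level of the cells' own RNA. LAMA5 was at 251, 308 and 212 CPM against 313, 266 and 222 CPM (difference -0.06 ± 0.26, adjusted p = 0.989). LAMA3 was at 5.05, 21.0 and 9.38 CPM against 6.79, 25.3 and 12.8 CPM (-0.38 ± 0.09, adjusted p = 0.561). LAMB2 (0.01 ± 0.24) and LAMC3 (0.28 ± 0.21), which encode the chains that LN523 and LN323 share, were not called either. Per length, LAMA5 averaged 70.9 TPM on LN523 and 76.3 TPM on LN323, against 3.44 and 4.51 TPM for LAMA3.

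Of 17 laminin receptors and other integrins, 1 was called higher (0 without replicate 3) and 4 lower (2 in DESeq2). ITGA6, an alpha chain of the main laminin integrins, was at 78.6, 177 and 109 CPM on LN523 and 100, 222 and 129 CPM on LN323, a difference of -0.31 ± 0.06 that did not pass the test (adjusted p = 0.113). ITGA7, another laminin-binding chain, was called higher, at 70.8, 37.3 and 56.0 CPM against 57.0, 25.2 and 32.6 CPM. ITGB4, the beta chain of epithelial hemidesmosomes, was called lower, at 20.3, 156 and 58.8 CPM against 62.2, 127 and 91.6 CPM, although it was higher in lane 2. ITGA8 (chromosome 10, 15513954 to 15719922), which binds nephronectin and fibronectin rather than laminin, was at least 2-fold lower in each lane, at 0.933, 8.81 and 4.45 CPM against 2.24, 42.2 and 12.9 CPM. The common beta chain ITGB1 (-0.14 ± 0.23) and dystroglycan, DAG1 (-0.06 ± 0.05), were not called.

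The other lists held few calls. Of 12 bipolar and Muller glia genes, 3 were called higher and 1 lower. VSX1, of bipolar cells, was at 9.24, 3.18 and 6.95 CPM on LN523 against 1.43, 2.65 and 2.24 CPM on LN323, AQP4 was higher in lanes 2 and 3 only, and GRIK1 was lower by -1.10 ± 1.15. Of 15 pigment epithelium genes, GPNMB was called higher and TYRP1 lower. Both calls were absent from DESeq2, and MITF, the factor of pigment cells, was at 71.1, 44.3 and 60.4 CPM against 76.5, 36.4 and 64.5 CPM (adjusted p = 1). Of 7 pluripotency genes, 1 was called lower. POU5F1, a core factor of pluripotent cells, was at 1.14, 2.45 and 1.36 CPM against 2.41, 0.963 and 1.46 CPM, LIN28B, which progenitors also express, was at 44.3, 51.5 and 63.7 CPM against 53.4, 45.4 and 62.2 CPM, and L1TD1 was the gene called lower, by -1.15 ± 0.57. Of 29 glycolysis and hypoxia genes, the neuronal enolase ENO2 (0.64 ± 0.29) and ALDOC (0.42 ± 0.33) were called higher and the glucose transporter SLC2A3 (-0.39 ± 0.14) lower, while HK1 differed by 0.03 ± 0.20. Of 23 genes of cholesterol and fatty acid synthesis, INSIG1 and SREBF2 were called higher and 1 member lower, and HMGCS1 (0.28 ± 0.15) was not called. Of 22 genes of the cilium and its transport, KIF17, a kinesin of sensory cilia, was called higher by 0.89 ± 0.45, and IFT88 (-0.26 ± 0.38) was not. The p53 targets CDKN1A and GDF15 were called higher among 12. Stress and immediate early genes gave 0 calls among 19 in edgeR (5 at an unadjusted p under 0.05), with HSPA5 at 0.09 ± 0.23 and JUN at -0.27 ± 0.53, and DESeq2 also called 0.

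**Figure D3:**
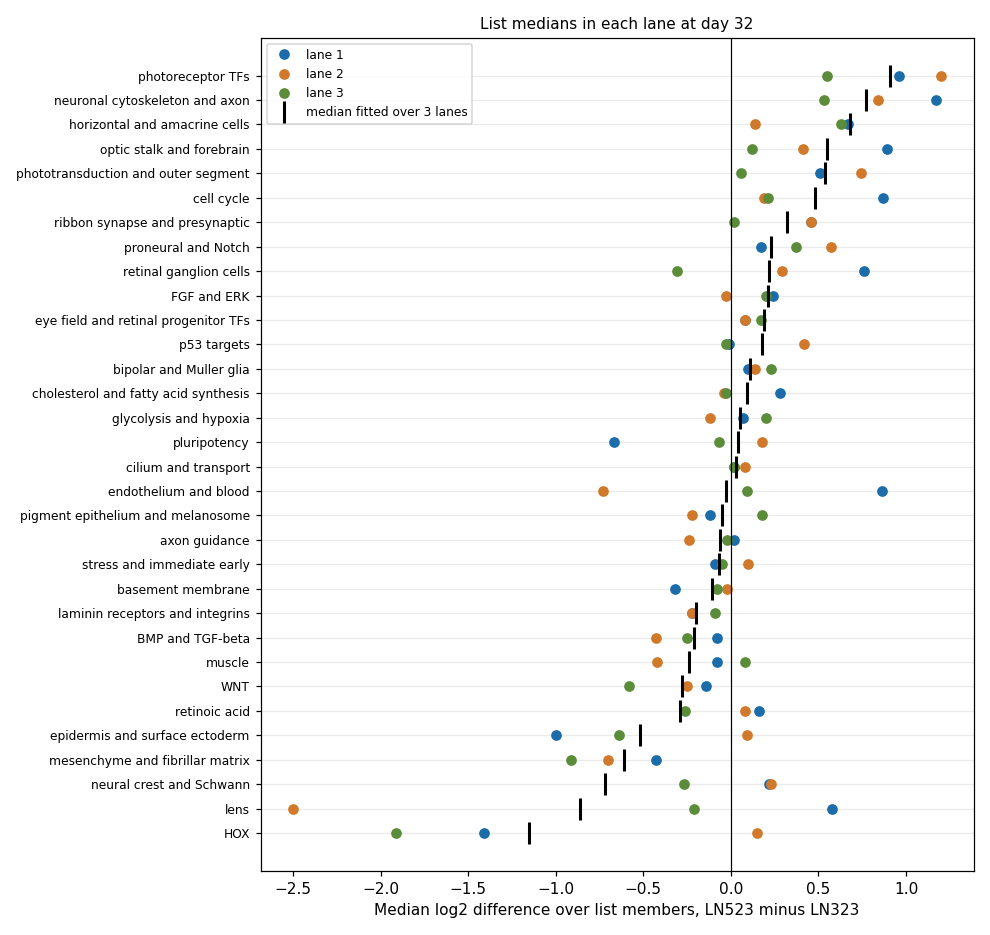
Median log2 difference, LN523 minus LN323, over the members of each list at 1 CPM or more, with a point for each lane and a black mark for the median of the fitted fold changes. The photoreceptor factors (0.96, 1.20 and 0.55) and the neuronal cytoskeleton lie right of 0 and the mesenchymal list left of 0 in all 3 lanes, the lens list is at -2.50 in lane 2 and at 0.58 in lane 1, and the HOX and epidermal lists are lower in lanes 1 and 3 only.

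Across lanes, 40 genes at 1 CPM or more were at least 2-fold higher on LN523 in 3 of 3 lanes (0.244%) and 29 were at least 2-fold lower (0.177%), and 64 of these 69 were called. The lane differences of all such genes correlated weakly between lanes, with Pearson's r of 0.194 for lanes 1 and 2, 0.318 for lanes 1 and 3 and 0.185 for lanes 2 and 3, across 16391 genes that are not independent replicates. The 2-fold higher genes, chosen after their values were seen, held the neurogenic factors NEUROD1, NEUROD4, NEUROG2, OLIG2, HES6 and ST18, the Notch genes DLL4 and MFNG, the retinal genes OTX2, ONECUT2, CDHR1 and PCARE, the forebrain factor EMX1, and the receptors DRD2 and GRM2. NEUROD4, a proneural factor of the retina, was at 23.6, 20.0 and 8.42 CPM against 3.20, 7.32 and 2.91 CPM. DRD2, a dopamine receptor, was at 6.36, 6.85 and 4.54 CPM against 1.54, 2.55 and 2.03 CPM, with no overlap. The 2-fold lower genes held the mesenchymal factors PRRX1, TWIST2, TBX15 and OSR2, the matrix genes DCN, HAPLN1 and ITGA8, and the signalling genes DKK2, RSPO3, EDN3, EDNRA and GDF10. TWIST2 was at 0.17, 22.5 and 1.87 CPM against 1.57, 59.4 and 17.0 CPM. Further members of the 10 largest rises were SLC1A7, a glutamate transporter of the retina, CCDC198, the matrix protein EGFLAM, the pump subunit ATP6V1B1, and the long RNAs MIR7-3HG, FEZF1-AS1 and ENSG00000267940, and their log2 fold changes ran from 2.06 to 2.70. Further members of the 10 largest falls were HOXA9, CD93, LHX8, ACTA2-AS1, ANPEP, OAS2, KCNMB1 and SP5, with log2 fold changes from -4.16 to -2.78, and in each of them lane 2 was the highest of the LN323 libraries. The 1 CPM floor is on a group mean, so that a 2-fold difference in a single lane can rest on few reads. OAS2 counts as 2-fold lower in each lane, yet it was at 0 against 0.0561 CPM in lane 1 and 0 against 0.052 CPM in lane 3. In lane 1 HOXA9 and ANPEP were also at 0 against 0.0561 CPM. A gene on the other strand covers 51.5% of the exons of ACTA2-AS1, and a gene on its own strand covers 63.1% of those of ATP6V1B1, so that the reads of both are uncertain.

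A small set of genes passed the test in a further setting. When the fit used bias-adjusted deviances and filterByExpr, a setting chosen after the data were seen, 6 genes were called, each with an adjusted p of 0.0496 in edgeR. CNTN2, CCNA1 and ISLR2 were among the higher ones, and SULT1E1 and EDNRA were lower on LN523. CCNA1, a cyclin best known from the germ line, was at 24.3, 21.9 and 18.7 CPM against 9.65, 7.76 and 6.55 CPM, a difference of 1.44 ± 0.10, and its groups did not overlap, as was the case for CNTN2 and ISLR2. ISLR2, a membrane protein of growing axons, was at 76.4, 49.5 and 68.1 CPM against 40, 26.4 and 33.3 CPM. EDNRA, an endothelin receptor of neural crest and mesenchyme, was at 12.5, 46.6 and 22.0 CPM against 26.2, 110 and 67.1 CPM. SULT1E1, an estrogen sulfotransferase, was at 0.17, 17.3 and 3.16 CPM against 0.505, 52.5 and 12.7 CPM.

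The matrix difference was not the same at day 22. A test of the change from day 22 to day 32 over the 12 libraries of both matrices called 321 of 39856 genes (0.805%), 201 of them toward LN523, but with the same infinite prior degrees of freedom. With filterByExpr, or without the replicate block, 0 genes were called (966 of 22245 at an unadjusted p under 0.05 with filterByExpr). For several neurogenic genes the day 22 libraries went the other way in each lane. ATOH7 was at 1.13, 10.8 and 3.06 CPM on LN523 and 1.62, 17.3 and 13.2 CPM on LN323 at day 22, a difference of -1.09 ± 0.88 that stood against 1.41 ± 0.94 at day 32. DLL4 was at 2.59, 7.31 and 6.58 CPM against 4.54, 11.5 and 12.1 CPM at day 22 (-0.77 ± 0.11), and RBP3 at 0.59, 1.79 and 0.0577 CPM against 1.23, 3.60 and 0.769 CPM (-1.63 ± 1.11). CNTN2, NEUROD1, POU4F2, STMN2 and ONECUT2 had the same form, but some of their day 22 values rest on few reads. POU4F2 was at 0, 0.726 and 0.52 CPM on LN523 and 0.077, 2.26 and 2.09 CPM on LN323. In lane 1 NEUROD1 was at 0.0472 against 0.077 CPM. CRX and OTX2 were close on both matrices at day 22, by 0.27 ± 0.36 and 0.07 ± 0.65. PRRX1 (-1.60 ± 1.4) and DKK2 (-1.76 ± 1.25) were lower on LN523 at day 22 as well, and their change between the days was not called (adjusted p = 1 and 0.48). In lane 2 at day 22 PRRX1 differed by -0.09 only. Other genes of mesenchyme changed between the days. COL1A1 was at 0.15 ± 0.42 at day 22, and the fitted differences of FN1 and ACTA2 were 0.63 and 0.48. The change was called for 7 of the 24 mesenchymal genes, and the list median at day 22 was -0.22.

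**Figure D4:**
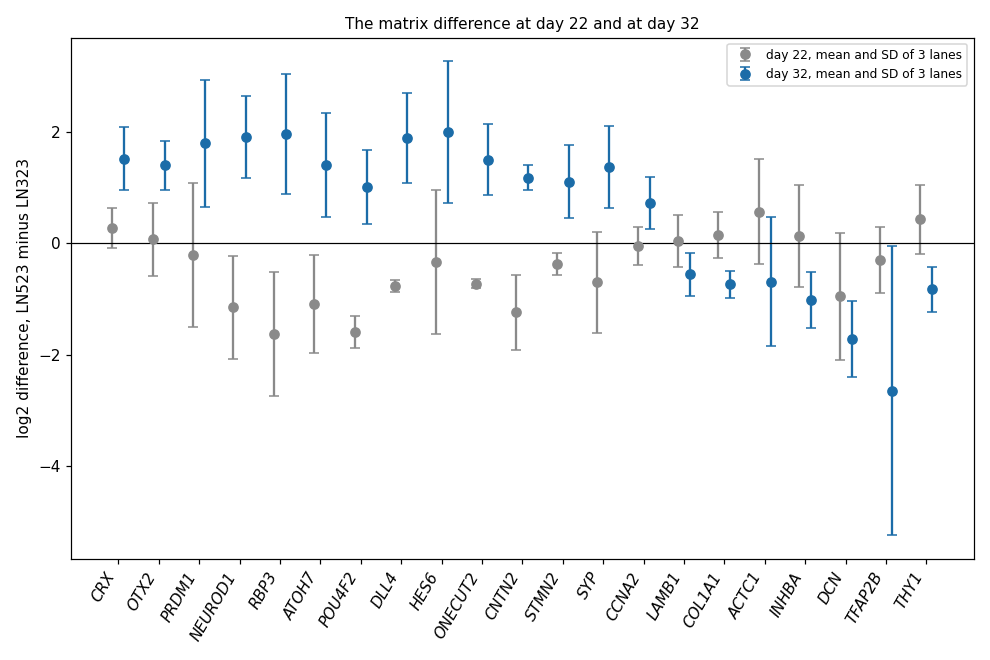
Log2 difference of TMM-normalized CPM, LN523 minus LN323, at day 22 (grey) and day 32 (blue) for 21 genes, as mean and SD of 3 lanes. NEUROD1, RBP3, ATOH7, POU4F2, DLL4, ONECUT2 and CNTN2 lie below 0 at day 22 and above 0 at day 32, and CRX and OTX2 lie near 0 at day 22.

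The LN521 libraries of day 32, outside the fit, are given for reference and without a test. The neuronal cytoskeleton list summed to 1340, 365 and 337 TPM on LN521, against 907, 834 and 615 TPM on LN523 and 430, 500 and 447 TPM on LN323. The mesenchymal list summed to 3940, 4560 and 3640 TPM on LN521 and was thus lower than in any LN323 library. The proneural and Notch list summed to 1730, 644 and 745 TPM on LN521, against 1840, 1310 and 1090 TPM on LN523 and 853, 958 and 860 TPM on LN323, and on this list the LN523 and LN323 libraries did not overlap.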

How the data were processed

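Bulk RNA-seq of H1 cells on LN523 and LN323 at day 32 was analysed, with 3 libraries a group. Per the labels and methods, the authors made stranded total RNA libraries, sequenced 150 bp pairs, aligned them with STAR 2.5.2b to GRCh38 (Ensembl 79), counted genes with featureCounts 1.5.1 (strand setting not given in the sources used here), removed rRNA and mitochondrial genes, rounded, and deposited the counts unnormalized for 44852 genes. The authors also deposited TPM values, used here for levels per length only.

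Counts were tested with edgeR 4.0.16 in R 4.3.3 (quasi-likelihood, TMM, more than 1 count in sum, lane as block, Benjamini-Hochberg adjustment, threshold 0.05), and the alternatives used DESeq2 1.42.0 and limma 3.58.1. Lane equals replicate number. Same-lane libraries of LN523 and LN323 deviated together from their group means (r = 0.706, 0.688 and 0.624), so the numbers pair these libraries. They do not pair the LN521 libraries as well. In lane 1 LN521 gave r = -0.231 with LN523 and -0.31 with LN323, and in lanes 2 and 3 the values were 0.139 to 0.369. LN521 was left out of the main fit for this reason, with the counts of calls with and without it known. Lane differences are of log2 CPM with a prior count of 2, and GENCODE 44 named 43052 genes.

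The comparison and its 32 lists were chosen with earlier results of these data known, and 3 further lists after values were seen. Named genes are the 10 largest rises and falls called with the same sign in 3 lanes and 1 CPM in a group and, for each list, its first gene and up to 3 called members with the lowest p, or the member with the lowest p where none was called. Others, and members of a list whose role was needed, were named after their values were seen. Some genes that these rules named are not reported here.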

Additional observations from a re-analysis of the deposited data

Results flagged for a closer look

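The genes below were named by the rules of the report and their matrix difference changed between day 22 and day 32 (edgeR interaction over 12 libraries, adjusted p under 0.05). With filterByExpr the adjusted p-values of the interaction were 0.16 or more for all of them that were tested. Values are the change of the log2 difference, LN523 minus LN323, from day 22 to day 32.

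The change was toward LN523 for photoreceptor and synapse genes, by 1.29 for CRX, 1.32 for OTX2, 3.34 for NEUROD1, 2.06 for PRDM1, 3.42 for RBP3, 1.98 for CDHR1, 0.95 for BSN, 1.13 for RIMS1 and 2.14 for SYP. It was also toward LN523 for neurogenic and early retinal genes, by 2.35 for HES6, 2.90 for NEUROG2, 2.67 for DLL4, 2.56 for ATOH7, 2.88 for POU4F2, 2.23 for ONECUT2 and 1.11 for FOXN4, and for CNTN2 (2.39), STMN2 (1.47), NEFL (1.59), CCNA2 (0.77), CRABP1 (0.82) and CCDC198 (5.46). CCDC198 had at most 0.385 CPM in any day 22 library.

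The change was away from LN523 for epidermal and crest genes, by -0.86 for TP63, -1.02 for CDH1, -0.97 for KRT15, -0.73 for ITGB4 and -1.45 for TFAP2B, and for mesenchymal, matrix and muscle genes, by -0.88 for COL1A1, -0.82 for DCN, -0.60 for LAMB1, -1.34 for ITGA8, -1.16 for INHBA, -1.27 for THY1 and -1.26 for ACTC1. The values of CRYGS (-2.25), L1TD1 (-1.58) and ANPEP (-3.70) also went this way. VAX1 (-9.29) had counts above the others in a single library, LN523 replicate 1 at day 22, at 3.28 CPM.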

How the results depend on the processing

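The count of 1035 called genes, 500 higher and 535 lower, was 0 with all 9 day 32 libraries, without the replicate block, with filterByExpr, with at least 10 counts in every library and, in settings chosen after seeing the data, with edgeR's bias-adjusted deviances or with limma-voom and filterByExpr. It was 437 (242 higher, 195 lower) in DESeq2, 303 (173 higher, 130 lower) in limma-voom and 6 (4 higher, 2 lower) with bias-adjusted deviances and filterByExpr. RLE normalization gave 1035. Leaving out a lane gave 571 to 996 genes, 183 to 536 higher and 309 to 460 lower, the fewest higher without replicate 1 and the fewest lower without replicate 3. The count that was 2-fold in 3 of 3 lanes, 69, was 43 with at least 10 counts in every library. The test of lane differences within the same fit called 3519 genes with filterByExpr and 3458 with at least 10 counts. The interaction with day, 321 genes, was 0 with filterByExpr and without the replicate block. The log2 fold change, CRYAA, ran from -1.47 to 0.05 over the lanes left out and changed sign without replicate 2. The cause of these differences was not tested. Among called genes, all 1035 kept their sign in DESeq2 and 1030 without the block. Because these fits used the same libraries, a kept sign is not independent support. Named genes under 1 CPM in a group rest on few reads.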

Other observations

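Genes of motile cilia, a list made after values were seen, were higher on LN523 in 11 of 19 members in 3 of 3 lanes and lower in 0, and 4 were called (21.1%), ZMYND10, TEKT1, CFAP47 and KIF19. The dynein assembly factor ZMYND10 was at 15.7, 7.10 and 10.7 CPM on LN523 and 3.67, 2.77 and 4.86 CPM on LN323, and the axonemal protein CFAP47 at 10.1, 7.21 and 8.14 CPM against 2.89, 3.37 and 2.39 CPM, both without overlap. The kinesin KIF19 was at 28.5, 14.9 and 7.79 CPM against 4.96, 5.49 and 2.08 CPM. FOXJ1, the master factor of motile cilia, was at 19.9, 9.90 and 22.9 CPM against 17.8, 7.59 and 16.0 CPM and was not called in edgeR (adjusted p = 0.597). The list summed to 216, 117 and 170 TPM on LN523 and 160, 90.9 and 124 TPM on LN323.

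Interferon-induced genes, also listed after values were seen, were called lower on LN523 in 6 of 18 members and higher in 0. MX1, an antiviral GTPase, was at 1.87, 22.8 and 2.95 CPM against 3.81, 78.3 and 6.16 CPM, and BST2 at 19.8, 53.4 and 12.5 CPM against 29.3, 71.6 and 24.3 CPM. The list summed to 1920 TPM in the lane 2 library on LN323 and to 239 to 779 TPM in the other 5, and without replicate 2 the count called lower was 2. The same library was the highest for the lens list. Of 11 posterior HOX genes tested, again listed after values were seen, 3 reached 1 CPM in a group, HOXA9, HOXA10 and HOXA11. These 3 were called lower in edgeR, 1 of them lower in 3 of 3 lanes, and DESeq2 called 0. HOXA9 reached that floor only on LN323 (mean 1.39 CPM against 0.0997 CPM), so that the share called is not a result about the list. The list summed to 26 TPM in the lane 2 library on LN323 and to 1.35 to 9.30 TPM in the other 5.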
